A study of Mus with 8 samples.

Results

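The fibroblast growth factor (FGF) genes described here are 10 of the 31269 gene symbols counted in uterine RNA from mice at pseudopregnancy day 6. They were chosen by name: the 6 ligands Fgf1, Fgf2, Fgf7, Fgf9, Fgf10 and Fgf18, and the 4 receptors Fgfr1, Fgfr2, Fgfr3 and Fgfr4. All 10 stood in the table under these symbols and all 10 passed the filter on low counts. RNA was sequenced in 8 libraries, 4 from controls and 4 from uteri whose label names a lack of progesterone receptor (PGR) in myometrium, the muscle layer. Both groups share the same day of pseudopregnancy, a state under progesterone without embryos, and a tissue label that speaks of implantation sites. The labels give no strain, age, allele, promoter or Cre driver for either group, nor do they tie libraries to animals. The p-values therefore measure the spread between these libraries, in which animals and technical steps cannot be told apart. Within groups, pairs of libraries differed by more than counting error, with a chi-square per degree of freedom of at least 48.6 in controls and 74.3 in the second group. Pgr itself was not lower in the second group (controls 156 ± 22.8 CPM, labelled deficient 177 ± 12.1 CPM, SD, n = 4). The label places the lack in muscle, whereas the RNA is uterine and counted per whole gene, so this level does not test the label. Every direction below therefore rests on the label, and the groups are called control libraries and libraries labelled deficient. CPM is a gene's count scaled to the library total with TMM factors (edgeR's correction for library composition).

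FGFs are secreted proteins that bind heparan sulfate on cell surfaces and in the matrix and signal through receptor tyrosine kinases, which pass the signal to RAS and the ERK kinases. Alternative splicing of Fgfr1, Fgfr2 and Fgfr3 gives an epithelial and a mesenchymal form of each receptor. In the uterus, FGFs made by stromal cells act on the receptors of the overlying epithelium and favour its proliferation, and progesterone acting through the stromal factor Hand2 restrains that supply. Feedback inhibitors of the Sprouty, Spred and dual-specificity phosphatase families and the ETS factors Etv4 and Etv5 are commonly read as targets of FGF signalling. The comparison asks how these genes differed between control uteri and those labelled deficient. Counts were per whole gene, so the splice forms of the receptors are not separated, and CPM does not allow for gene length, so levels are compared between libraries and not between genes. In bulk tissue, fewer cells of a type and less RNA per cell cannot be told apart.

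Among the 10 genes, the ligand Fgf9 and the receptor Fgfr1 were lower in every library labelled deficient than in any control library. Neither passed edgeR's test over all genes, while DESeq2 called Fgf9. At an adjusted p under 0.05, edgeR's quasi-likelihood test called 0 of the 10, against 0% of the 17629 genes tested. At an unadjusted p under 0.05 it gave 2 of the 10, both lower, where 11.8% of all genes were lower and 13% higher at that level. The same 2 were the members whose groups did not overlap, against 8.66% of all genes apart on the low side and 7.61% on the high side. DESeq2 called 1 member, Fgf9, lower at an adjusted p under 0.05, where it called 6.7% of genes lower and 7.41% higher. Limma-voom called 0 of the 10 and 0.0113% of all genes, 0.00567% in each direction. Of the members 6 had negative and 4 positive differences, with a median log2 difference (labelled deficient minus control) of -0.19, beside 0.01 over all genes tested. With so few members these counts are a description.

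**Figure D1:**
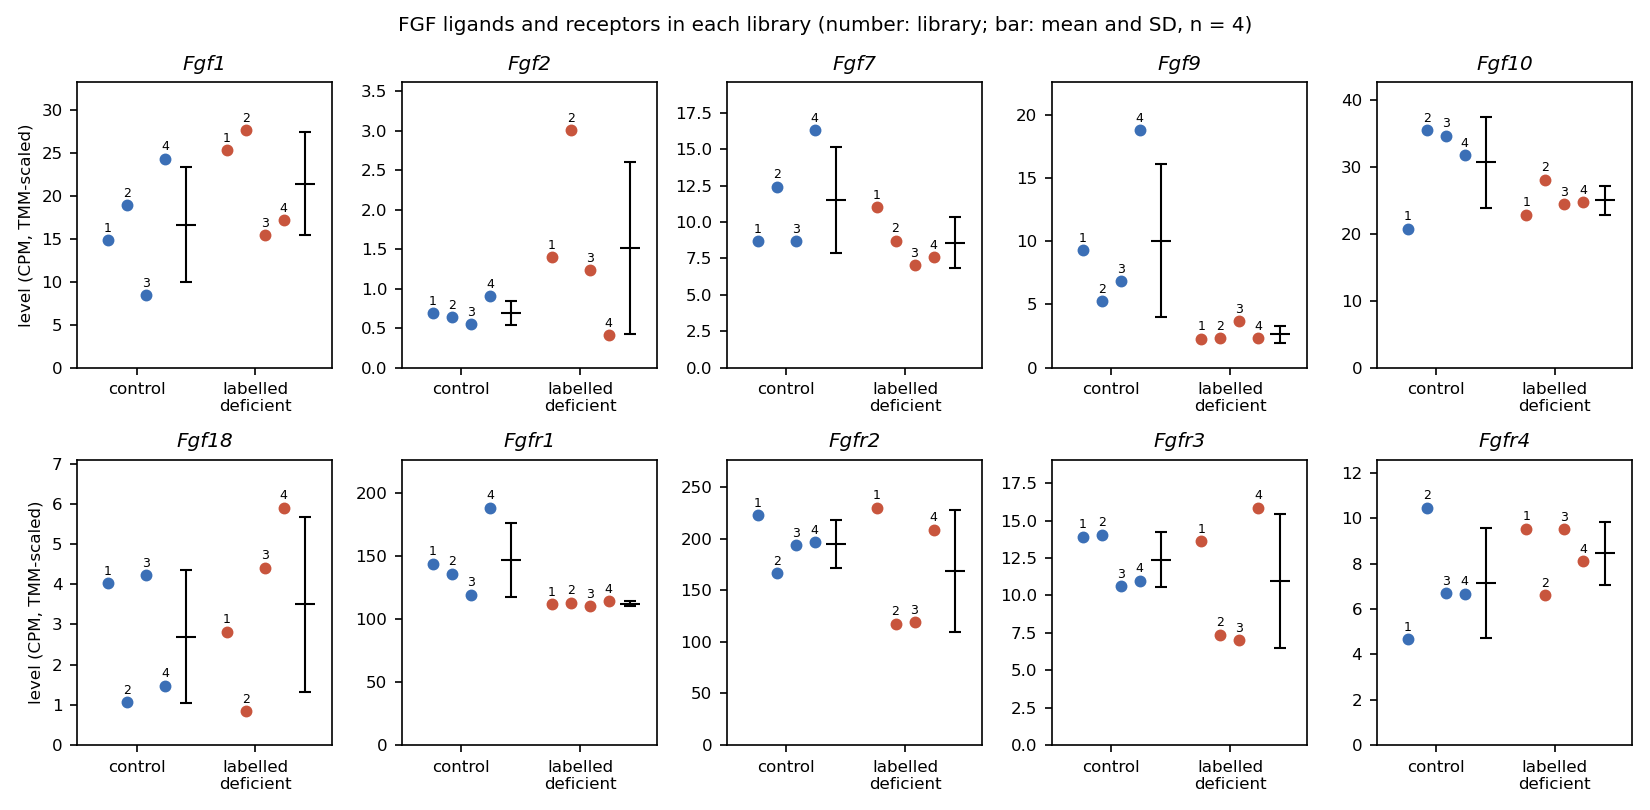
Level of each FGF ligand and receptor in CPM (vertical axis, from 0, own scale per gene) in the 4 control libraries (blue) and the 4 labelled deficient (red); numbers name the library, and bars give the mean and SD of 4. Fgf9 and Fgfr1 are the panels without overlap, and Fgfr2 and Fgfr3 are low in libraries 2 and 3 labelled deficient.

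Fgf9, a ligand that uterine stroma is known to make and that acts mainly on the mesenchymal receptor forms, showed the largest difference of the 10. The gene spans 58070671 to 58112854 of chromosome 14 (GRCm38.p6, as for all positions here). Fgf9 measured 9.3, 5.25, 6.81 and 18.8 CPM in control libraries 1 to 4 and 2.28, 2.33, 3.65 and 2.33 CPM in libraries 1 to 4 labelled deficient. All 4 libraries labelled deficient lay below the lowest control, and control library 4 stood well above the other controls. The ratio of labelled deficient to control was 0.263 (95% interval 0.138 to 0.503), a log2 difference of -1.92 ± 0.41 (SE). The adjusted p was 0.0906 in edgeR and 0.000205 in DESeq2, and the exact permutation p (two-sided) was 0.0286, the smallest that 4 against 4 libraries allow. Without control library 4 the log2 difference was -1.44, and DESeq2 called Fgf9 in all 10 of its fits, including those without 1 library. Over the 27 alternatives the difference ran from -2.14 to -1.43, and the adjusted p from 6.94e-06 to 0.252.

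Markers of other cell types stood beside this result. Mesothelial markers, which label the outer lining of the uterus, had 0 of 5 positive differences, and their summed level ran from 297 to 378 CPM in controls and from 148 to 243 CPM in libraries labelled deficient. Most of that sum was Wt1, which uterine stroma expresses too (254 to 271 CPM against 103 to 191 CPM), while Msln, a defining mesothelial gene, overlapped (8.03 to 32.9 CPM against 9.86 to 13.7 CPM). Of the 5 markers, 2, Wt1 among them, were lower in every library labelled deficient than in any control (8.66% of all genes were). The second was among the mesothelial markers Upk3b, Upk1b and Lrrn4, whose single values are not given here. Wt1 and Msln were named after their values were seen, so they do not stand for the list. DESeq2 called 2 of the 5 lower, against 6.7% of all genes. Epithelial markers had 8 of 12 positive differences, from 1396 to 1663 CPM summed in controls and from 1489 to 3757 CPM in libraries labelled deficient, and no marker of either list was at 0. In libraries 1 to 4 labelled deficient the epithelial sums were 1489, 3757, 2775 and 1586 CPM. Mast cell markers had 4 of 5 negative differences and a median log2 difference of -2.15, larger in size than that of Fgf9. The 4 mast cell protease genes Cpa3, Mcpt4, Cma1 and Tpsb2 were each lower in every library labelled deficient than in any control and were called lower by DESeq2 (adjusted p from 0.00104 to 0.00834) and not by edgeR. Each was highest in control library 4, as Fgf9 was. The summed mast cell level overlapped (35 to 65.7 CPM in controls, 33 to 123 CPM in libraries labelled deficient). A large share of that sum was Kit, which other cells also express and which had a positive difference. No mast cell marker was at 0 in all libraries. The part of mesothelial, epithelial or mast cell RNA in the Fgf9 difference was not tested.

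Fgf7 and Fgf10, stromal ligands that act on the epithelial form of Fgfr2, had negative differences that did not pass the test. Fgf10 (chromosome 13, 118714699 to 118792573) measured 20.8, 35.6, 34.7 and 31.8 CPM in control libraries 1 to 4 and 22.9, 28.1, 24.5 and 24.7 CPM in those labelled deficient. All 4 labelled deficient lay between control library 1, the lowest of the 8, and the other 3 controls. The ratio was 0.815 (95% interval 0.625 to 1.06; edgeR adjusted p = 0.299; two-sided exact permutation p = 0.2). The estimate depended on control library 1: without it the log2 difference went from -0.29 to -0.45. DESeq2 then gave an adjusted p of 0.00228, in a fit that called 1328 genes, while edgeR gave 0.2. Leaving out the 1 control below the libraries labelled deficient ends the overlap by construction, so nothing is drawn from that separation. Fgf7 (chromosome 2, 126034658 to 126091185), also known as keratinocyte growth factor, measured 8.68, 12.4, 8.66 and 16.3 CPM in controls and 11, 8.72, 7.02 and 7.6 CPM in libraries labelled deficient. Libraries 3 and 4 labelled deficient lay below every control, and libraries 1 and 2 lay among the controls. Its ratio was 0.746 (95% interval 0.506 to 1.1; edgeR adjusted p = 0.306; two-sided exact permutation p = 0.229). The gene overlaps Fam227b, which had means of 40 counts in controls and 23.8 in libraries labelled deficient.

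Fgf2, basic FGF, a heparin-binding mitogen that acts on the mesenchymal receptor forms, was the least deeply counted member, with 50, 45, 40 and 64 counts in control libraries 1 to 4 and 101, 203, 87 and 30 in those labelled deficient. The gene spans 37348477 to 37410106 of chromosome 3. In CPM these were 0.689, 0.635, 0.547 and 0.902 against 1.4, 3.01, 1.23 and 0.41. Libraries 1, 2 and 3 labelled deficient lay above every control, and library 4 below every control, so the group labelled deficient spanned the controls on both sides. The log2 difference was 1.12 ± 0.52 (SE), with a ratio of 2.18 (95% interval 0.949 to 4.99; edgeR adjusted p = 0.223; two-sided exact permutation p = 0.229). Single libraries moved it by much: it was 0.55 without library 2 labelled deficient, 0.39 without libraries 2 and 3, and 1.44 without library 4. Without library 4, the only one below the controls, DESeq2 gave Fgf2 an adjusted p of 0.00675 and edgeR 0.0715. That DESeq2 fit called 3961 genes, against 2488 with all 8 libraries. The gene overlaps Nudt6 in the annotation, which had means of 800 counts in controls and 802 in libraries labelled deficient, and the antisense transcript Fgf2os. The strand setting of the counting is not given in the sources used here, so reads from Fgf2 and these partners may not be told apart.

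Fgf1, acidic FGF, which can bind all the FGF receptors, measured 14.8, 18.9, 8.44 and 24.3 CPM in controls and 25.3, 27.7, 15.4 and 17.2 CPM in libraries labelled deficient. The gene spans 38838672 to 38929470 of chromosome 18. Libraries 1 and 2 labelled deficient lay just above the highest control, and libraries 3 and 4 within the control range. Its ratio was 1.29 (95% interval 0.767 to 2.16; edgeR adjusted p = 0.505; two-sided exact permutation p = 0.343). The gene overlaps Arhgap26, with means of 1179 counts in controls and 1226 in libraries labelled deficient, under the same limit of unknown strand. Fgf18 (chromosome 11, 33116970 to 33147400), a ligand best known from lung and skeleton, varied widely in both groups, at 4.02, 1.06, 4.23 and 1.48 CPM in controls and 2.82, 0.845, 4.41 and 5.91 CPM in libraries labelled deficient. The lowest was library 2 in either group, the highest was library 3 among controls and library 4 among those labelled deficient, and the coefficient of variation was 61.6% in controls and 62.1% in the other group. Its ratio was 1.3 (95% interval 0.472 to 3.56; edgeR adjusted p = 0.735; two-sided exact permutation p = 0.771). Without library 4 labelled deficient the log2 difference was -0.00295.

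**Figure D2:**
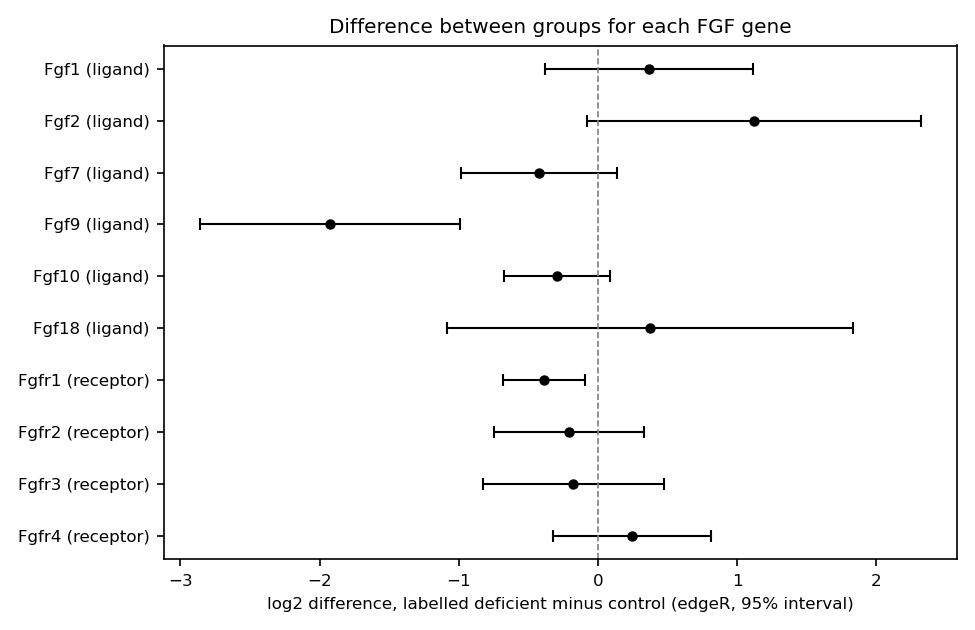
Log2 difference of each FGF gene (labelled deficient minus control, horizontal axis; points are edgeR estimates and bars their 95% intervals, not adjusted over genes). The intervals of Fgf9 (-2.86 to -0.99) and Fgfr1 (-0.68 to -0.10) lie below 0, and the other 8 include 0.

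Among the receptors, Fgfr1, the main receptor of mesenchymal cells, measured 144, 136, 119 and 188 CPM in control libraries 1 to 4 and 112, 113, 110 and 114 CPM in libraries 1 to 4 labelled deficient. The gene spans 25518759 to 25575718 of chromosome 8 and had at least 7617 counts in every library. Every library labelled deficient lay below the lowest control, and the 4 lay close together, with a coefficient of variation of 1.46% against 20.1% in the controls. The ratio was 0.764 (95% interval 0.623 to 0.936), a log2 difference of -0.39 ± 0.13 (SE). The unadjusted p was 0.0155 and the adjusted p 0.13 in edgeR, the adjusted p was 0.0521 in DESeq2, and the exact permutation p (two-sided) was 0.0286. Without control library 4, the highest, the log2 difference was -0.25. The direction held in all 27 alternatives (-0.48 to -0.25), and 1 of them, DESeq2 without control library 3, called it (adjusted p = 0.0107). Without libraries 2 and 3 labelled deficient edgeR's log2 difference was -0.38 at an unadjusted p of 0.067.

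Smooth muscle markers had 0 of 11 positive differences beside Fgfr1, with a median log2 difference of -0.24. Of these, 4 (36.4%) were lower at an unadjusted p under 0.05 in edgeR, against 11.8% of all genes, and 0 at an adjusted p. Their summed level ran from 5542 to 7993 CPM in controls and from 5501 to 6307 CPM in libraries labelled deficient, so the groups overlapped, and no marker was at 0. The muscle sums were 5542, 7654, 6497 and 7993 CPM in control libraries 1 to 4 and 5501, 5869, 6307 and 5828 CPM in libraries 1 to 4 labelled deficient. Control library 4 had the highest muscle sum and the highest Fgfr1, but the order of the other controls differed. Control library 1, with the lowest muscle sum of the controls, had Fgfr1 at 144 CPM, above control library 2 at 136 CPM. Stromal fibroblast markers, the other mesenchymal list, had 4 of 11 positive differences and a median of -0.08, with sums from 6886 to 8268 CPM in controls and from 8090 to 9294 CPM in libraries labelled deficient. The collagen genes Col1a1 and Col3a1, with ratios of 1.59 and 1.26, made up a large share of the stromal sum. The part of muscle or stromal RNA in the Fgfr1 difference was not tested.

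Fgfr2, the receptor whose epithelial form binds Fgf7 and Fgf10, split the libraries labelled deficient into pairs. It measured 223, 167, 194 and 196 CPM in control libraries 1 to 4 and 230, 118, 119 and 209 CPM in libraries 1 to 4 labelled deficient. Libraries 2 and 3 labelled deficient lay below every control, library 1 lay above every control and library 4 lay within their range. The gene lies on chromosome 7 from 130162451 to 130266808. Its ratio was 0.867 (95% interval 0.597 to 1.26; edgeR adjusted p = 0.602; two-sided exact permutation p = 0.4), and without libraries 2 and 3 labelled deficient the log2 difference turned from -0.21 to 0.18 (adjusted p = 0.457). Fgfr3 (chromosome 5, 33721724 to 33737068), a receptor of epithelia and cartilage, showed the same split, at 13.9, 14.1, 10.6 and 11 CPM in controls and 13.6, 7.37, 6.99 and 15.9 CPM in libraries labelled deficient. Its ratio was 0.885 (95% interval 0.564 to 1.39; edgeR adjusted p = 0.72; two-sided exact permutation p = 0.4), and the log2 difference turned from -0.18 to 0.26 without libraries 2 and 3 (adjusted p = 0.439). Fgfr4 (chromosome 13, 55152818 to 55168759), best known as the receptor for endocrine FGFs in liver, lay wholly within the control range, at 9.55, 6.6, 9.53 and 8.12 CPM against 4.68, 10.5, 6.71 and 6.68 CPM in controls (ratio 1.18, 95% interval 0.798 to 1.76; edgeR adjusted p = 0.557; two-sided exact permutation p = 0.371).

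Libraries 2 and 3 labelled deficient also stood apart in the sum of the epithelial markers, in the opposite direction to Fgfr2 and Fgfr3. The summed epithelial markers were 3757 and 2775 CPM there against 1489 and 1586 CPM in libraries 1 and 4 labelled deficient. Cdh1, the epithelial cadherin, was at 625 and 424 CPM against 222 and 229 CPM, and Elf3, an epithelial ETS factor, at 585 and 413 CPM against 69.1 and 69.8 CPM. Both were chosen after their values were seen. Of the 12 epithelial markers, 8 had positive and 4 negative differences between the groups, with a median log2 difference of 0.56, so the markers did not move as one. Without libraries 2 and 3 labelled deficient, 6 were positive and 6 negative in edgeR, with a median of -0.04. Fgfrl1, a receptor-like protein that binds FGFs and lacks the kinase, was at 57.9 and 45.5 CPM in libraries 2 and 3 against 23.1 and 27.1 CPM in libraries 1 and 4, with controls from 25.5 to 28.4 CPM. Esrp1, a splicing factor that directs the epithelial receptor forms, was at 117 and 90.9 CPM against 53.8 and 52 CPM, with controls from 47.4 to 52.3 CPM. Endothelial markers had 2 of 7 positive differences, and their sums were 658 and 763 CPM in libraries 2 and 3 against 1307 and 1154 CPM in libraries 1 and 4, with controls from 987 to 1193 CPM. What part these cell types have in the receptor levels was not tested. The library pairs were noticed in the values and carry no label, so no test was made between them.

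**Figure D3:**
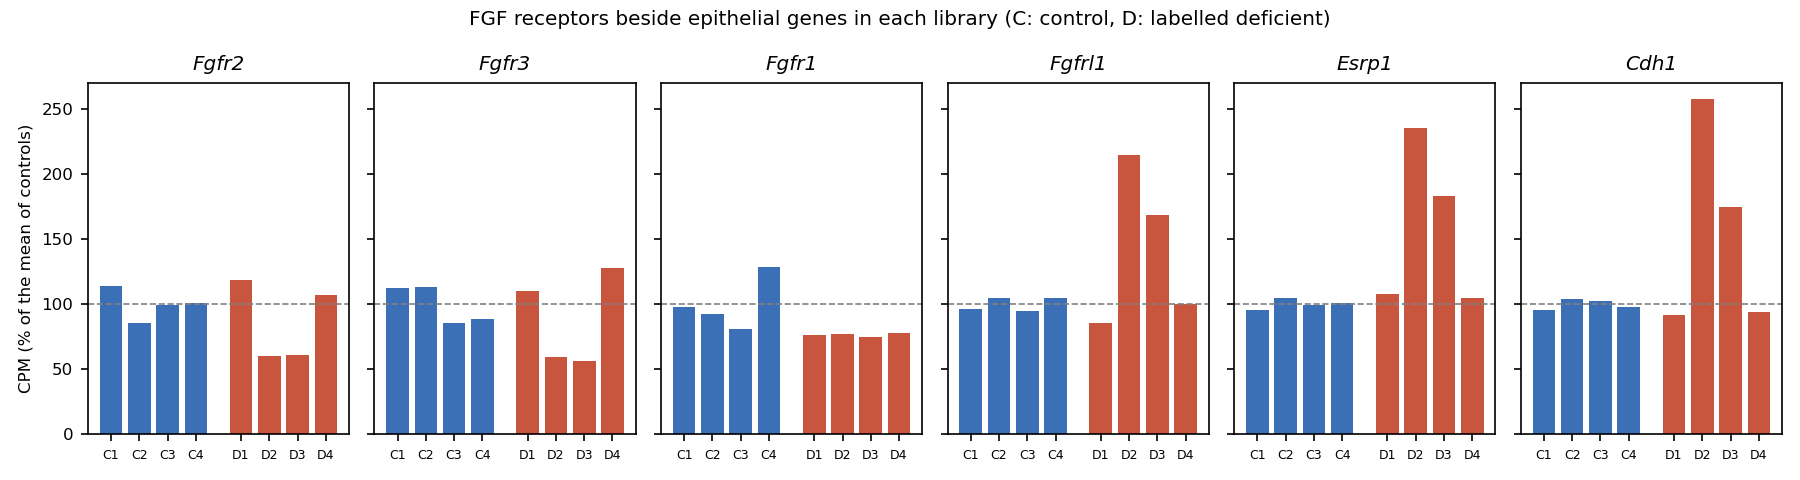
CPM of 3 FGF receptors, the receptor-like gene Fgfrl1, the splicing factor Esrp1 and the epithelial gene Cdh1 in each library, as a percentage of the mean of the 4 controls (vertical axis from 0; C, control; D, labelled deficient; dashed line, 100%). D2 and D3 are at 60.4% and 61% for Fgfr2 and at 257% and 174% for Cdh1, whereas Fgfr1 is between 75.1% and 77.6% in all 4 libraries labelled deficient. Cdh1 was chosen from the epithelial markers after its values were seen and does not stand for all of them.

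The other FGF genes were mostly near the limit of counting. Of 12 other secreted FGFs, 2 passed the filter: Fgf17 (log2 difference -0.15 ± 0.33, SE) and Fgf16 (-0.16 ± 0.60). The other 10, from Fgf3 to Fgf23, had at most 16 counts in any library and were not tested. The FGF homologous factors, which stay inside the cell and bind sodium channels, were all tested. Of them, 4 of 4 had positive differences, beside 9159 of the 17629 genes tested. The difference of Fgf11, named only to complete the list, was 0.02 ± 0.18 (log2, SE). Fgf12 was apart between groups, at 1.16, 2.93, 2.65 and 2.26 CPM in controls and 4.57, 8.84, 4.75 and 5.48 CPM in libraries labelled deficient. Its ratio was 2.63 (95% interval 1.54 to 4.47), with an adjusted p of 0.094 in edgeR and 0.00194 in DESeq2. Fgf14 was at 0.78 ± 0.59 (SE; 1.28 without libraries 2 and 3 labelled deficient) and Fgf13 at 0.05 ± 0.36.

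Among 17 tested genes of 18 feedback inhibitors and transcriptional targets of FGF signalling, 14 had negative differences and 3 positive. The median log2 difference was -0.34, beside 0.01 over all genes. At an unadjusted p under 0.05 in edgeR, 6 were lower (35.3%, against 11.8% of all genes) and 1 was higher, and 0 passed adjustment over all genes. DESeq2 called 4 of the 17 lower at an adjusted p under 0.05, where it called 6.7% of all genes lower. The median was -0.08, with 11 negative, without control library 4, and -0.24, with 14 negative, without libraries 2 and 3 labelled deficient. These genes answer to many growth factors besides FGFs, so the list does not read one pathway.

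Etv4, an ETS transcription factor, measured 1.31, 1.06, 0.903 and 1.97 CPM in control libraries 1 to 4 and 0.304, 0.623, 0.426 and 0.657 CPM in libraries labelled deficient. The groups did not overlap, control library 4 was the highest as for Fgf9, and the ratio was 0.384 (95% interval 0.222 to 0.664; adjusted p = 0.0987 in edgeR and 0.00751 in DESeq2). Spry1, a Sprouty inhibitor, measured 42.3, 29.2, 44.1 and 45.4 CPM against 24.8, 19.7, 22.5 and 31.7 CPM, with 3 of 4 libraries labelled deficient below every control. Its ratio was 0.613 (95% interval 0.458 to 0.821; adjusted p = 0.101 in edgeR and 0.00857 in DESeq2), and it moved from a log2 difference of -0.71 to -0.51 without libraries 2 and 3 labelled deficient. Spred3, another inhibitor of the ERK cascade, was apart between groups at a ratio of 0.746 (adjusted p = 0.128 in edgeR and 0.0472 in DESeq2), and its log2 difference moved from -0.42 to -0.26 without the same libraries.

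The remaining targets were picked for mention after their values were seen. Dusp4, a phosphatase of nuclear ERK, was at -1.24 ± 0.40 (log2 difference, SE; adjusted p = 0.128 in edgeR and 0.0241 in DESeq2), with 3 of 4 libraries labelled deficient below every control. Il17rd, a membrane inhibitor of FGF receptors, was apart between groups, at -0.56 ± 0.19 (adjusted p = 0.142 in edgeR and 0.0564 in DESeq2). Some other commonly used readouts also overlapped between groups. Dusp6, the cytoplasmic ERK phosphatase, was at 0.16 ± 0.17, Spry4 at -0.04 ± 0.20, Spry2 at -0.07 ± 0.07 and Etv5 at -0.34 ± 0.27. Etv5 followed the split seen for Fgfr2 and Fgfr3, at 41.7 and 38.3 CPM in libraries 2 and 3 labelled deficient against 68.7 and 92 CPM in libraries 1 and 4, with controls from 67.8 to 85.1 CPM. Hand2, the stromal factor named above, measured 161, 172, 161 and 229 CPM in controls and 136, 63.2, 91 and 138 CPM in libraries labelled deficient ( log2 difference -0.75 ± 0.25, adjusted p = 0.134 in edgeR and 0.0369 in DESeq2).

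**Figure D4:**
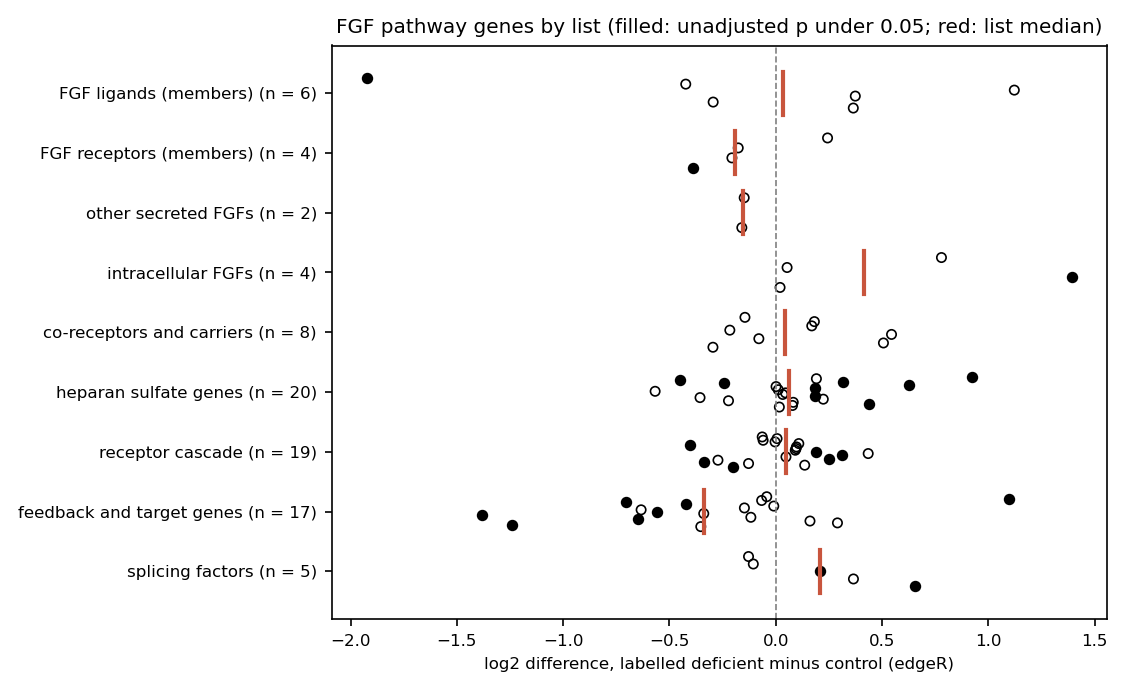
Log2 difference (labelled deficient minus control, horizontal axis) of each tested gene of the FGF ligands, receptors and 7 neighbouring lists (rows, with the number tested); filled points have an unadjusted p under 0.05 in edgeR and red bars are list medians. The feedback and target genes have a median of -0.34, and the single filled points of the ligands and receptors are Fgf9 and Fgfr1.

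Heparan sulfate genes encode the co-receptors that FGFs need and the enzymes that build and edit their chains. Of 20 tested, 15 had positive and 5 negative differences with a median of 0.06. With library totals or upper quartiles as the scaling the split was 12 positive to 8 negative. At an unadjusted p under 0.05, 6 (30%) were higher and 2 (10%) lower, against 13% and 11.8% of all genes. Of the 20, 0 passed adjustment in edgeR, and DESeq2 called 2 higher (10%, against 7.41% of all genes). Sulf2, a sulfatase that trims heparan sulfate outside the cell, measured 147, 183, 175 and 128 CPM in controls and 269, 437, 307 and 186 CPM in libraries labelled deficient. Every library labelled deficient lay above every control, library 4 by little, and the ratio was 1.89 (95% interval 1.29 to 2.79; adjusted p = 0.101 in edgeR and 0.00612 in DESeq2). The log2 difference was 0.92, and 0.53 without libraries 2 and 3 labelled deficient. The syndecans Sdc3 (log2 difference 0.32 ± 0.08, SE) and Sdc1 (0.63 ± 0.23) were also apart on the high side, and Sdc1 went to 0.26 without libraries 2 and 3.

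Adaptors and kinases of the receptor cascade had 11 positive and 8 negative differences of 19 and a median of 0.05. At an unadjusted p under 0.05, 3 were higher and 3 lower (15.8% each, against 13% and 11.8% of all genes). In each direction 2 were apart between groups, where 7.61% of all genes were apart on the high side and 8.66% on the low side. Grb2, the adaptor that links receptors to RAS, had a ratio of 1.19 (95% interval 1.07 to 1.31) and Frs3, a docking protein of FGF receptors, 0.791 (0.653 to 0.96), with edgeR adjusted p of 0.0993 and 0.149. DESeq2 called Grb2 higher (adjusted p = 0.00691) and Frs3 lower (0.0376). These were 1 of 19 in each direction, against 7.41% of all genes called higher and 6.7% lower. Of 9 co-receptors and carriers 8 were tested, with 4 positive and 4 negative differences and 0 at an unadjusted p under 0.05. Those with the smallest p were the carrier Fgfbp3 (-0.30 ± 0.15), the adhesion protein Flrt2 (0.54 ± 0.29) and Fgfrl1 (0.51 ± 0.27). Without libraries 2 and 3 labelled deficient Flrt2 was at 0.23 and Fgfrl1 at -0.10. Fgfbp1, a carrier that releases FGFs from the matrix, was below the filter, at 4, 12, 7 and 39 counts in controls and 0, 1, 0 and 0 in libraries labelled deficient; it was chosen after its counts were seen. Of 5 splicing factors, 3 had positive differences: Ptbp1 at 0.21 ± 0.07, Esrp1 at 0.66 ± 0.25 and Esrp2 at 0.37 ± 0.20, all above an adjusted p of 0.05 in edgeR. Without libraries 2 and 3 labelled deficient Esrp1 was at 0.09 and Esrp2 at -0.05.

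The genes whose pattern over the 8 libraries was most like that of Fgf9, by the root mean square difference of centred log2 CPM over 15242 other genes with a mean of at least 1 CPM, were Gpr115, an adhesion receptor (0.303), Nppa, the precursor of atrial natriuretic peptide (0.342), and Cemip, a hyaluronan-binding protein (0.351). All 3 were lower in every library labelled deficient than in any control (8.66% of all genes were), which largely follows from choosing them for likeness to Fgf9. Those most like Fgfr1 were Ddhd1, a phospholipase (0.073), Zfp398, a zinc finger protein (0.0791), and Cpeb2, an RNA-binding protein (0.0817). Of the genes like Fgfr1, Zfp398 was apart on the low side, and Ddhd1 and Cpeb2 overlapped between groups. The genes named here are the nearest of many, and nearness of pattern is all they show.

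Of the whole series, total counts ran from 70296369 to 72364750, and the 10 FGF genes together held from 21268 to 35195 counts per library. Macrophage markers had 8 of 8 positive differences (562 to 754 CPM summed in controls, 781 to 1090 CPM in libraries labelled deficient). Ovary and oviduct markers had 4 of 6 negative, with library 1 labelled deficient at 306 CPM and the other 7 libraries from 62.6 to 109 CPM. Adipocyte markers were near 0, at 0.493 to 3.65 CPM summed over 5 genes in all 8 libraries.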

How the data were processed

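The authors deposited whole-number counts per gene symbol for 8 libraries, with no normalization. The submitters' processing notes name HISAT2 2.2.1, HTSeq 0.10.0 and mm10; no source used here gives their settings or the strand. Columns were matched to sample titles. Genes were filtered with filterByExpr (17629 left), scaled with TMM and tested with edgeR 4.0.16 (glmQLFit, glmQLFTest, R 4.3.3) on a model of group alone, with Benjamini-Hochberg adjustment over all genes tested. SE came from the difference and its F value. Exact permutation tests used log2(CPM + 0.1) over 70 placements. DESeq2 1.42.0 and limma-voom (limma 3.58.1), other scalings and filters, and libraries left out were alternatives. The fits were tested on simulated counts. Named genes were the 10 members, up to 3 genes with the smallest p per pathway list (1 of them is not reported here), and the genes most like 1 ligand and 1 receptor; exceptions are said, and the single marker genes named (Wt1, Msln, Elf3, Cdh1, Hand2, and the mast cell and collagen genes) were chosen after their values were seen. The members, the 18 gene lists and the leaving out of libraries 2 and 3 were chosen with earlier results of these data known. Gene positions are from a RefSeq table of GRCm38.p6, which matched 22353 symbols. Adgre1 was matched by an older symbol. Genes with few counts, among them Fgf2, Fgf14, Fgf16, Fgf18, Etv4 and Nppa, carry more counting error than the others.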

Additional observations from a re-analysis of the deposited data

Results flagged for a closer look

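In each group of 4 libraries the highest and lowest values were compared with the rest, for 92 groups of values (the named genes and the marker lists), and 5 had 1 library far from the other 3. Chance flags about 1 in 20 groups. Fgf9 was 3.65 CPM in library 3 labelled deficient, where the other 3 ran from 2.28 to 2.33 CPM, still below every control. Fgfbp3 was 4.89 CPM in library 2 labelled deficient against 6.11 to 6.29 CPM in the other 3. Spred3 was 43.8 CPM in control library 1 against 33 to 34.5 CPM in the other controls. Ptbp1 was 347 CPM in library 2 labelled deficient against 298 to 305 CPM. The mast cell markers summed to 35 CPM in control library 3 against 62 to 65.7 CPM in the other controls.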

How the results depend on the processing

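DESeq2 called 2488 genes and 1 member, limma-voom 2 genes, and DESeq2 without libraries 2 and 3 labelled deficient 1461 genes and 1 member, against 0 in edgeR. With 1 library left out, calls ran from 0 to 3961 genes (edgeR at most 2; DESeq2 1328, 2059, 1751 and 927 leaving out controls 1 to 4 in turn, and 2457, 1531, 1703 and 3961 leaving out libraries labelled deficient) and from 0 to 2 members, and genes at an unadjusted p under 0.05 from 2896 to 6233, members from 2 to 4. Without libraries 2 and 3 labelled deficient, 1 member had an unadjusted p under 0.05 in edgeR, and 5362 genes had groups that did not overlap (3156 to 4933 with 1 library left out). Groups with fewer libraries are apart more often by chance, so these counts are not comparable with the 2868 genes of all 8 libraries. Whether the replicate number pairs the libraries could not be decided with 4 libraries per group. Same-numbered libraries deviated together with a correlation across genes from -0.0828 to 0.255, and libraries of different numbers from -0.282 to 0.324. Of the 8 libraries, 3 correlated best with their own number. With the replicate block edgeR called 23 genes and 0 members.

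Directions turned for genes with small differences and for those set by libraries 2 and 3. Without both, edgeR and DESeq2 gave Fgfr2 0.18 and 0.17, Fgfr3 0.26 and 0.25, Fgfrl1 -0.10 and -0.10, Esrp2 -0.048 and -0.050, Fgf17 0.12 and 0.12, and Fgf16 0.085 and 0.083. Fgf13 was -0.089 in limma-voom and -0.084 with the replicate block. With 1 library left out, the log2 difference of Fgf18 was -0.00295 and -0.00244 without library 4 labelled deficient, that of Fgf13 ran to -0.16 (-0.142 and -0.140 without library 4 labelled deficient), that of Fgf16 from 0.00543 (without control 3) to 0.20, and that of Fgf17 was 0.0283 and 0.0378 without library 3 labelled deficient and 0.0789 and 0.0884 without control library 4. The cause was not tested. The other 7 members (Fgf1, Fgf2, Fgf7, Fgf9, Fgf10, Fgfr1 and Fgfr4) kept their direction in every alternative run; Fgf2 had no value with a filter of 1 CPM in 4 libraries.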
